A study of Mus musculus with 12 samples.

Results

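Glycolysis enzymes and their muscle isoforms were followed at the RNA level in 12 mouse samples, each measured on 1 Affymetrix array. The group was fixed by gene symbol and holds 10 genes, namely Pfkm, Pfkl, Aldoa, Pgk1, Pgam1, Pgam2, Eno1, Eno3, Ldha and Ldhb. Of these, 9 had a probe set that names only that gene, among 18194 genes measured in this way, and Eno1 was not analysed here. Where a gene had several probe sets, the brightest by its mean of all 12 arrays was read first and the others served as a check. Each of 6 groups had 2 arrays, a and b. The Smad3-/- label covers mice of mixed strain, NIH Black Swiss females (Taconic) with C57BL/6, kept on a regular diet (RD) or a high fat diet (HFD, 55% fat), and wild-type (WT) C57BL/6 mice were on the same diets. In a second experiment, C57J/B6 mice with diet-induced obesity received an antibody against TGF-beta (clone 1D11) or control IgG (clone 13C4), injected intraperitoneally over 8 weeks at 3 doses a week. All 4 of these arrays therefore come from obese mice. The diet given for these mice also held 55% fat. The comparisons ask what loss of Smad3, a transcription factor that carries TGF-beta signals into the nucleus, changes on each diet, and what blocking TGF-beta changes once obesity is present. The labels give neither tissue nor age and leave unsaid whether a and b are separate animals.

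Glycolysis splits glucose into pyruvate in the cytosol and yields ATP without oxygen. Several of its steps are served by alternative isoenzymes from separate genes, and skeletal muscle, which draws heavily on glycolysis and on its own glycogen, uses forms of its own. Pfkm is the muscle form of phosphofructokinase, the main control point of the pathway, and Pfkl is its liver form. Pgam2 and Eno3 are the muscle forms of phosphoglycerate mutase and enolase, and Pgam1 is the mutase of most other tissues. Aldoa, the aldolase of muscle and of many other cells, and Pgk1, phosphoglycerate kinase, are used widely. Ldha and Ldhb encode the subunits of lactate dehydrogenase, of which the Ldha subunit prevails in fast muscle and the Ldhb subunit in heart and slow muscle. In adipose tissue glycolysis also supplies glycerol phosphate and acetyl units for fat storage.

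The mutase genes Pgam2 and Pgam1 encode enzymes of the same step and behaved differently in the arrays, so the 250 bases before their transcription starts are shown together with those of Eno3, which rose with Pgam2 for the antibody and for genotype on both diets. The sequences are from RefSeq on build GRCm38.p6 and run 5′ to 3′ on the gene's strand. They lie at chr11:5803797-5804046 on the minus strand for Pgam2, chr19:41911621-41911870 on the plus strand for Pgam1 and chr11:70656926-70657175 on the plus strand for Eno3. Capitals mark a match to the MEF2 motif, 80 bases before the Pgam2 start, and the E-box CAGCTG, 125 bases before it.

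Pgam2: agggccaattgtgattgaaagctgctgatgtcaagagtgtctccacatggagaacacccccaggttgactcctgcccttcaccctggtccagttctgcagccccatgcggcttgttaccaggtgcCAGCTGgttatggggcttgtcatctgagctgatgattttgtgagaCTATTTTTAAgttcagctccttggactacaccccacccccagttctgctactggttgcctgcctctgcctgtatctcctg
Pgam1: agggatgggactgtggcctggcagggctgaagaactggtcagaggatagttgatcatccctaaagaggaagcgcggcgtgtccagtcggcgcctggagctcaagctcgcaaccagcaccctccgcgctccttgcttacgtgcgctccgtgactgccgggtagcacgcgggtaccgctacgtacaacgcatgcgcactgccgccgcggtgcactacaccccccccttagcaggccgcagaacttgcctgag
Eno3: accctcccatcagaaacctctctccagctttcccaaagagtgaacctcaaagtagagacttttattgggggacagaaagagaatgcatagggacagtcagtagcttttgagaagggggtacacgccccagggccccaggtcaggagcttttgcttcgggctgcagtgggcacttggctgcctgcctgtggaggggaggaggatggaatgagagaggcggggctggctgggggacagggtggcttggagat

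MEF2 proteins and the E-box binding MyoD family are the textbook transcription factors of muscle genes. Both strands were searched for the MEF2 motif, for this E-box and for ACGTG, the core of the site bound by the hypoxia factor HIF. These motifs do not overlap in the windows shown. All 10 genes had at least 1 window, 18 in all. The MEF2 motif and the E-box were found in the window of Pgam2 and in no window of the other 9 genes. Over 32851 windows of 27025 genes, 2.92% held the MEF2 motif, 13.0% held the E-box and 16.6% held the HIF core. The HIF core stood in a window of Ldha, with 5 matches counted over both strands, of Pgk1 with 2 and of Pgam1 with 1, and in windows of Pfkm and Aldoa. These matches describe letters in a window and were not tested as binding sites.

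Within groups, a and b had Pearson r of 0.9918 to 0.996 across genes, and the number of arrays limits the precision. The p-values rest on the spread between a and b, which may be technical. The array medians were 6.32 to 6.39 log2 in the diet and genotype experiment and 6.03 to 6.04 in the antibody experiment, so levels were compared only within an experiment. Smad3 itself averaged 9.13 on Smad3-/- RD arrays, against 8.90 on WT RD arrays, and 9.09 on Smad3-/- HFD arrays, against 8.92 on WT HFD arrays (limma adjusted p = 0.117 and 0.409). No source used here places its probe set inside or outside the deleted sequence, so this does not check the genotype, and Smad3-/- below stands for arrays labelled so. Genotype and strain cannot be told apart. Both RD groups stood apart by markers of other tissues. The mean of 8 epididymis and sperm genes was 11.62 on the Smad3-/- RD arrays and 5.85 to 8.56 in the other groups of that experiment, and the mean of 5 smooth muscle genes was 11.99 on the WT RD arrays and 8.32 to 9.35 in the others. The HFD groups also held epididymal signal. Of the 8 genes, 6 lay at or above the array median in the WT HFD group, 5 in the Smad3-/- HFD group and 3 in the WT RD group. Cuzd1 averaged 13.03 on WT HFD, 12.11 on Smad3-/- HFD and 6.38 on WT RD arrays. All 8 measured white adipocyte markers, among them Adipoq, Fabp4 and Lep, lay above the array median in each of the 6 groups.

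Among the 9 measured enzymes, genotype on the HFD changed most. There 8 rose in Smad3-/- arrays and 0 fell at a limma adjusted p under 0.05, where 4.74% of all genes were called higher and 6.05% lower. With the antibody 4 rose and 0 fell, beside 11.7% of all genes higher and 12.6% lower. On the RD 4 rose and 1 fell in Smad3-/- arrays, beside 8.40% of all genes higher and 15.6% lower. The HFD against the RD raised 6 and lowered 0 in Smad3-/- mice, where 11.5% of genes were higher and 5.82% lower (17.3% either way), and raised 1 and lowered 2 in WT mice, where 4.69% were higher and 6.11% lower. The median log2 difference of the 9 enzymes was 0.83 for genotype on the HFD, 0.30 for the antibody and 0.28 for genotype on the RD, against medians of -0.01, 0.00 and 0.04 over all genes. The RD and HFD comparisons share arrays and are given side by side, not as independent results. The enzymes were chosen with earlier results of these data known. Their counts beside the shares of all genes are therefore descriptions and no test of the group.

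**Figure D1:**
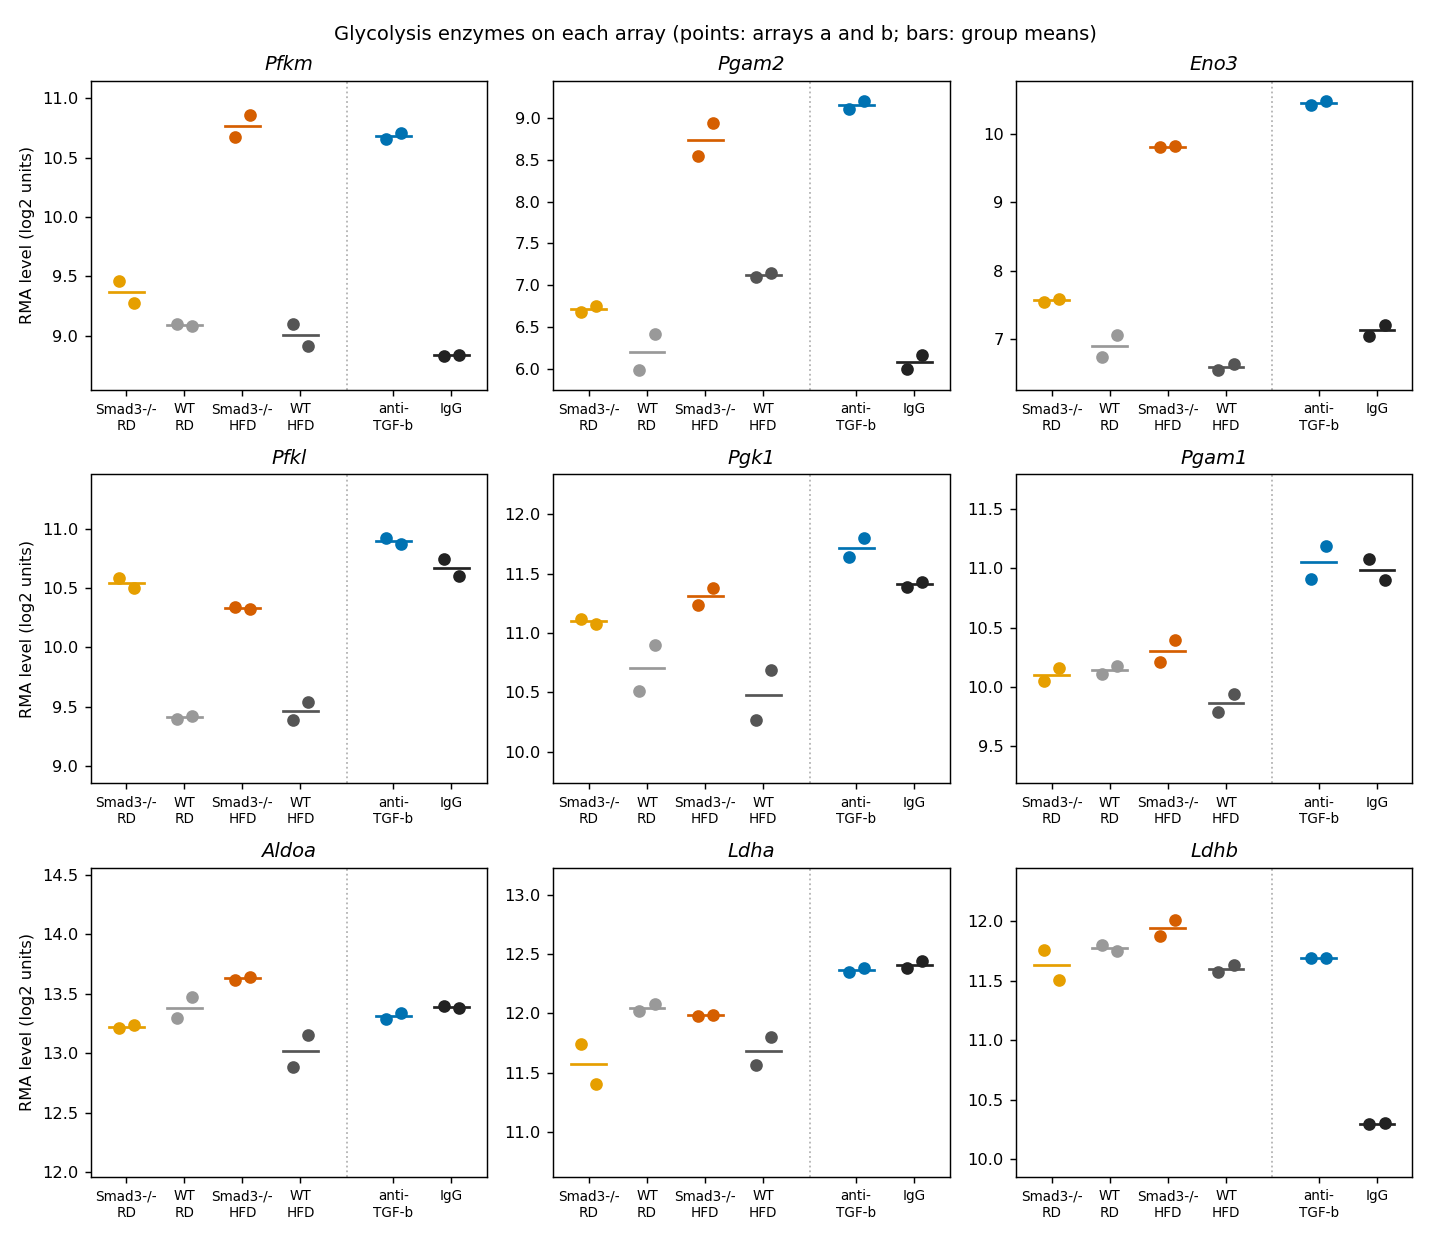
RMA level (log2 units, y axis) of each enzyme on each array, by group along the x axis, with points for arrays a and b and bars for group means; the dotted line parts the 2 experiments, whose levels are not compared. Pfkm, Pgam2 and Eno3 are highest on Smad3-/- HFD arrays among the diet and genotype groups and on anti-TGF-beta arrays in the antibody experiment, while Aldoa stays between 12.88 and 13.64 everywhere.

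The plot of levels by array shows that the muscle isoforms had the widest range. Eno3, the muscle enolase, stood at 9.81 and 9.82 on the Smad3-/- HFD arrays, against 6.55 and 6.63 on the WT HFD arrays. Its level was 10.43 and 10.48 on the anti-TGF-beta arrays, against 7.04 and 7.21 on the IgG arrays. RD arrays gave 7.54 and 7.59 for Smad3-/-, against 6.74 and 7.06 for WT. Every Smad3-/- array was thus above the WT arrays of the same diet, and both antibody arrays were above both IgG arrays. With 2 arrays a group such separation is common. It held in this direction for 22.3% of all genes for genotype on the HFD, 32.3% on the RD and 29.7% with the antibody. In the other direction it held for 25.7%, 27.1% and 30.5%. The log2 difference was 3.22 ± 0.12 (SE) for genotype on the HFD, or 9.31-fold (limma adjusted p = 9.04e-18). It was 3.33 ± 0.12 for the antibody, or 10.1-fold (limma adjusted p = 2.12e-18), and 0.67 ± 0.12 for genotype on the RD, or 1.59-fold (limma adjusted p = 7.82e-05). Counted from the largest rise, Eno3 ranked 24 among 18194 genes for genotype on the HFD and 42 for the antibody. In the diet and genotype experiment its levels ran WT HFD, WT RD, Smad3-/- RD, Smad3-/- HFD from low to high, and the lowest pair of these groups did not differ past the threshold (log2 difference of WT HFD minus WT RD -0.30 ± 0.12, limma adjusted p = 0.119).

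Pgam2, the muscle phosphoglycerate mutase, showed the largest antibody difference after Eno3 among the 9 enzymes. Its level was 9.11 and 9.20 on anti-TGF-beta arrays, against 6.00 and 6.17 on IgG arrays. On the HFD it was 8.54 and 8.94 on Smad3-/- arrays, against 7.10 and 7.15 on WT arrays. Its RD levels stood at 6.68 and 6.75 on Smad3-/- arrays, against 5.99 and 6.42 on WT arrays. The groups did not overlap in any of these comparisons, which also held for 22.3% to 32.3% of all genes in the same direction. The IgG and WT RD means, 6.08 and 6.21, lay close to the array medians and may be background, so folds against them may be too small. The log2 difference was 3.07 ± 0.15 for the antibody, or 8.40-fold (limma adjusted p = 1.32e-15), and 1.62 ± 0.15 for genotype on the HFD, or 3.06-fold (limma adjusted p = 2.52e-09). On the RD it was 0.51 ± 0.15 (limma adjusted p = 0.00996), and this call ended without WT RD replicate a (0.29, limma adjusted p = 0.274) and without Smad3-/- RD replicate b (0.47, limma adjusted p = 0.0786). Pgam2 alone among the 9 enzymes rose with the HFD in WT mice, to a mean of 7.13 on WT HFD arrays, against 6.21 on WT RD arrays (0.92 ± 0.15, limma adjusted p = 3.5e-05). Its order from low to high was WT RD, Smad3-/- RD, WT HFD, Smad3-/- HFD. Between WT HFD and WT RD arrays, 0 of 20 skeletal muscle markers rose and 5 fell. Of 8 epididymis and sperm genes 5 rose and 0 fell, and the sperm lactate dehydrogenase Ldhc rose by 1.98 log2. Their part in the Pgam2 rise was not tested.

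Pfkm, the muscle phosphofructokinase, was already well above the array medians in every group. It was at 10.67 and 10.86 on Smad3-/- HFD arrays, against 9.10 and 8.91 on WT HFD arrays. With the antibody it was at 10.66 and 10.71, against 8.83 and 8.84 with IgG. Both differences passed, at 1.76 ± 0.11 or 3.39-fold for genotype on the HFD (limma adjusted p = 6.73e-13) and 1.85 ± 0.11 or 3.61-fold for the antibody (limma adjusted p = 1.04e-13). Its RD levels were 9.46 and 9.28 on Smad3-/- arrays, against 9.10 and 9.08 on WT arrays. These arrays did not overlap either, as for 32.3% of all genes in that direction, but the difference of 0.28 ± 0.11 did not pass (limma adjusted p = 0.0552). It passed without Smad3-/- RD replicate b (0.37, limma adjusted p = 0.0338), with dim genes left out (limma adjusted p = 0.0482) and after a second quantile normalization (0.54, limma adjusted p = 0.000133). WT HFD and WT RD arrays overlapped for Pfkm (-0.09 ± 0.11, limma adjusted p = 0.768).

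**Figure D2:**
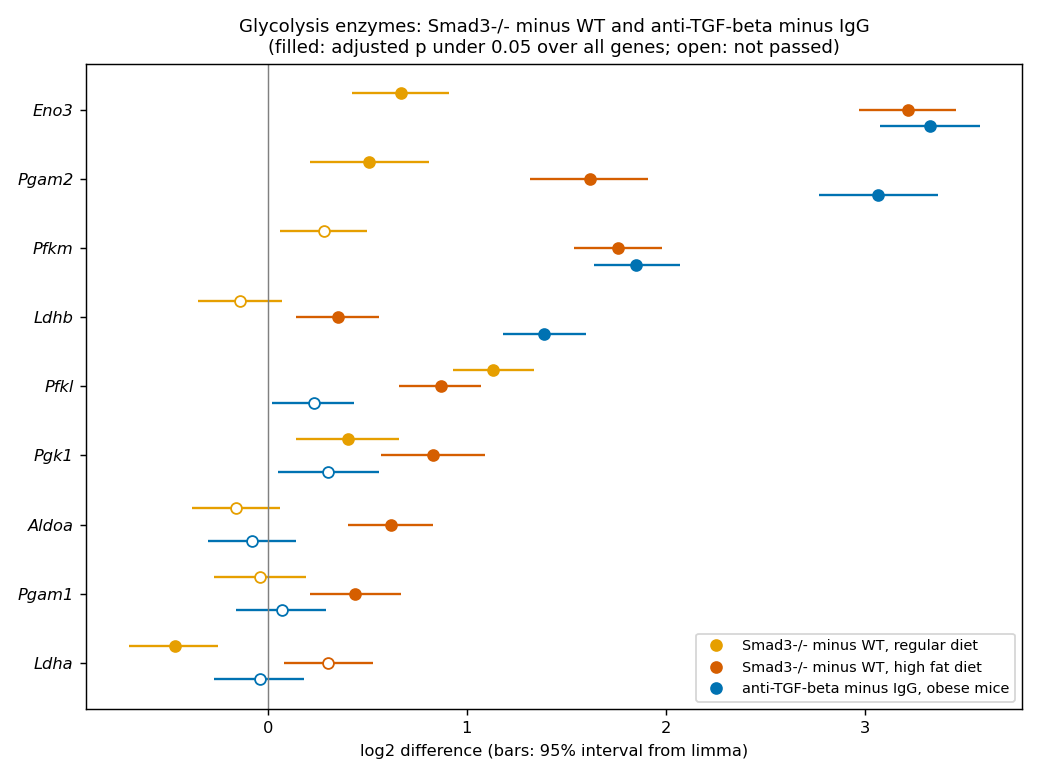
log2 differences (x axis) of the 9 enzymes for Smad3-/- minus WT on each diet and anti-TGF-beta minus IgG; points are limma estimates, bars their 95% intervals, and filled points passed an adjusted p of 0.05 over all genes. Eno3, Pgam2 and Pfkm lie farthest to the right for the HFD and antibody comparisons, from 1.62 to 3.33, and Pfkl for genotype on the RD, at 1.13.

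Skeletal muscle markers moved with these isoforms. The list of 20 includes the fast myosin Myh4, the fast troponins Tnnc2, Tnnt3 and Tnni2, the calcium pump Atp2a1 and the creatine kinase Ckm. For genotype on the HFD all 20 rose (median log2 difference 4.13), and for the antibody all 20 rose (median 5.19). On the RD 10 rose and 4 fell in Smad3-/- arrays (median 0.36). The mean level of the list was 9.92 and 10.02 on Smad3-/- HFD arrays, against 5.97 and 5.90 on WT HFD arrays, and 10.46 and 10.49 on anti-TGF-beta arrays, against 5.84 and 5.79 on IgG arrays. On the RD it was 6.66 and 6.66 on Smad3-/- arrays, against 6.47 and 6.39 on WT arrays. Of the 20 markers, 1 was below the array median in the Smad3-/- HFD group and 14 in the WT HFD group, and 0 were below it with the antibody and 13 with IgG. Myh4 stood at 9.92 and 10.10 on Smad3-/- HFD arrays, against 3.64 and 3.67 on WT HFD arrays. It also stood at 6.12 and 6.12 on Smad3-/- RD arrays, against 3.65 and 3.50 on WT RD arrays. Its levels in the WT and IgG groups were far below the array medians. Among the 4 markers that fell on the RD were Acta1 (log2 difference -2.44) and Tnnc2 (-2.52), about as far as Myh4 rose (2.55). In bulk RNA, more cells of a type and more RNA per cell cannot be told apart. The part of the muscle markers in the differences of Eno3, Pgam2 and Pfkm was not tested.

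**Figure D3:**
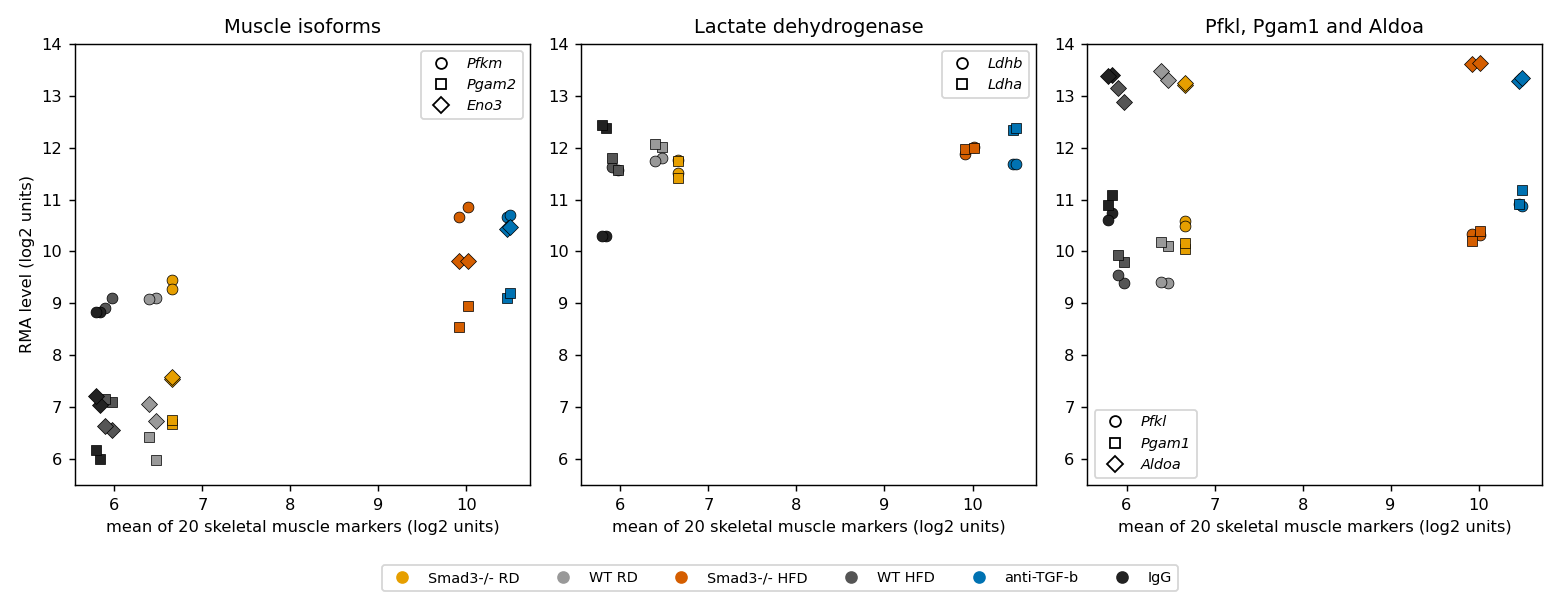
Level of 8 of the enzymes (log2 units, y axis; Pgk1 is not drawn) against the mean level of 20 skeletal muscle markers (log2 units, x axis), 1 point for each enzyme and array, coloured by group; levels of the antibody experiment are not on the scale of the others. The muscle isoforms are high on the 4 arrays with a marker mean of 9.92 to 10.49, whereas Pfkl and Ldha on the Smad3-/- HFD arrays lie within the range of the other diet and genotype arrays.

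The plot against the muscle markers has no arrays at marker levels between 6.66 and 9.92. Over the 12 arrays, with each gene centred within its experiment, the marker mean had Pearson r of 0.994 with Pfkm, 0.991 with Eno3, 0.943 with Pgam2 and 0.852 with Ldhb. It had r of 0.486 with Pfkl, 0.477 with Aldoa and 0.237 with Ldha. These coefficients describe arrays in separate clusters that share the group differences and carry no test. Among all genes by the same measure, those most like Pfkm were Tnni2 (r = 0.998), Tnnt3 (0.996) and Atp2a1 (0.995). Those most like Eno3 were Tnnt3 (0.996), Tnni2 (0.994) and Pfkm (0.992). For Pgam2 they were Actn2 (0.989), Crls1 (0.988) and Ldb3, and for Ldhb they were Asb5 (0.986), Pacsin3 (0.984) and Prg4 (0.98).

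Pfkl, the liver form of phosphofructokinase, rose in Smad3-/- arrays on both diets. On the RD it was at 10.58 and 10.50 on Smad3-/- arrays, against 9.40 and 9.42 on WT arrays. On the HFD it was at 10.34 and 10.32 on Smad3-/- arrays, against 9.39 and 9.54 on WT arrays. The Smad3-/- arrays lay about a log2 unit above WT on either diet, by 1.13 ± 0.10 or 2.19-fold on the RD (limma adjusted p = 4.6e-10) and 0.87 ± 0.10 or 1.82-fold on the HFD (limma adjusted p = 2.35e-07). With the antibody Pfkl was at 10.92 and 10.87, against 10.74 and 10.60 with IgG, and the difference of 0.23 ± 0.10 did not pass (limma adjusted p = 0.103). It passed when only the 4 antibody arrays were fitted (limma adjusted p = 0.0262) and after a second quantile normalization (limma adjusted p = 0.0184). The other Pfkl probe sets gave smaller differences, 0.59 and 0.36 on the RD, both past the threshold, and 0.55 and -0.04 on the HFD, of which the third probe set did not pass (limma adjusted p = 0.937). The diet comparisons did not pass for Pfkl in either genotype, at 0.05 ± 0.10 in WT and -0.21 ± 0.10 in Smad3-/- mice (limma adjusted p = 0.865 and 0.174).

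Brown adipocyte markers moved beside Pfkl and the muscle isoforms. Of 9 such markers, 5 rose and 0 fell in Smad3-/- arrays on the RD (median 1.10), 6 rose and 0 fell on the HFD (median 0.76) and 8 rose and 0 fell with the antibody (median 1.67). Ucp1, the uncoupling protein of brown fat, differed by 5.96 on the RD, 5.41 on the HFD and 6.93 with the antibody. The mean of the list was 8.85 and 8.73 on Smad3-/- RD arrays, against 6.51 and 6.51 on WT RD arrays. It was 8.61 and 8.61 on Smad3-/- HFD arrays, against 6.50 and 6.45 on WT HFD arrays, and 8.71 and 8.77 with the antibody, against 6.19 and 6.25 with IgG. The lowest of the 9 markers, Zic1 or Cox7a1 depending on the group, averaged 3.65 to 5.69. Over the 12 centred arrays the list had r of 0.857 with Pfkl, 0.844 with Eno3, 0.812 with Pfkm, 0.808 with Pgk1 and 0.729 with Pgam2. The white adipocyte list had r of -0.881 with Pfkl. The genes most like Pfkl were Cox8b (r = 0.962), itself a brown fat marker, Hadhb (0.956) and Pdk4 (0.953). The part of these markers in the differences of Pfkl and the muscle isoforms was not tested.

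Pgam1, the mutase of most tissues, changed little where Pgam2 changed much. With the antibody it was at 10.91 and 11.19, against 11.08 and 10.90 with IgG, so the groups overlapped (0.07 ± 0.11, limma adjusted p = 0.737). On the RD it was at 10.05 and 10.16 on Smad3-/- arrays, against 10.11 and 10.18 on WT arrays, and these overlapped too (-0.04 ± 0.11, limma adjusted p = 0.855). A second quantile normalization turned that difference to 0.29 (limma adjusted p = 0.0253). On the HFD Pgam1 was at 10.21 and 10.40 on Smad3-/- arrays, against 9.79 and 9.94 on WT arrays, a rise of 0.44 ± 0.11 (limma adjusted p = 0.00736). This call ended without WT HFD replicate a (limma adjusted p = 0.0935) and without Smad3-/- HFD replicate b (limma adjusted p = 0.151). The 95% interval of the antibody difference, -0.16 to 0.29, lies below that of Pgam2, 2.77 to 3.37.

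Within each array, the step from the common to the muscle form can be read without setting 1 probe set's level against another's, by asking how the difference between both genes changed. Pgam2 minus Pgam1 was higher by 3.00 log2 with the antibody than with IgG, an 8.03-fold change of their ratio. It was higher by 1.18 in Smad3-/- than in WT arrays on the HFD and by 0.55 on the RD. On the HFD against the RD it was higher by 1.20 in WT mice and by 1.83 in Smad3-/- mice. Pfkm minus Pfkl was higher by 1.63 with the antibody and by 0.89 in Smad3-/- HFD arrays, but changed by -0.85 in Smad3-/- RD arrays, where Pfkl passed and Pfkm did not. By the brightest probe sets, the phosphofructokinase pair thus turned opposite ways on the 2 diets and the mutase pair did not. The size of the RD change rests on the first Pfkl probe set. The others rose by only 0.59 and 0.36 on the RD, against 0.28 for Pfkm. These ratios are descriptions with no test of their own.

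Aldoa was the brightest of the 9 enzymes in every group, with array levels between 12.88 and 13.64. On the HFD it was at 13.62 and 13.64 on Smad3-/- arrays, against 12.88 and 13.15 on WT arrays. The difference of 0.62 ± 0.11, or 1.53-fold, passed (limma adjusted p = 0.000125), and its other probe sets gave 0.42 to 0.83. For the RD, Aldoa was at 13.21 and 13.24 on Smad3-/- arrays, against 13.30 and 13.47 on WT arrays (-0.16 ± 0.11, limma adjusted p = 0.306). With the antibody it was at 13.29 and 13.34, against 13.40 and 13.38 with IgG (-0.08 ± 0.11, limma adjusted p = 0.658). The arrays of these last comparisons did not overlap, with the Smad3-/- RD and antibody arrays lower, but the differences did not pass. Of all genes, 27.1% on the RD and 30.5% with the antibody were lower without overlap. The probe sets of Aldoa and the first of Pgk1 are of a kind that may also bind related transcripts, and differences of a gene near the top of the scale may be compressed.

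Pgk1, phosphoglycerate kinase, was higher in Smad3-/- arrays on both diets. On the HFD it was at 11.24 and 11.38 on Smad3-/- arrays, against 10.27 and 10.69 on WT arrays, a rise of 0.83 ± 0.13 or 1.78-fold (limma adjusted p = 1.95e-05). With the RD the levels were 11.12 and 11.08 on Smad3-/- arrays, against 10.51 and 10.90 on WT arrays, a rise of 0.40 ± 0.13 (limma adjusted p = 0.0185). The RD call was fragile. It ended without WT RD replicate a (0.21, limma adjusted p = 0.405), without Smad3-/- RD replicate a or b (limma adjusted p = 0.0771 and 0.0553), with arrays centred on their medians (0.34, limma adjusted p = 0.0712), with eBayes without a trend (limma adjusted p = 0.0549), in the mean of the probe sets (limma adjusted p = 0.0509), and in the other probe sets (0.20 and 0.22, limma adjusted p = 0.252 and 0.261). With the antibody it was at 11.64 and 11.80, against 11.39 and 11.43 with IgG. That difference of 0.30 ± 0.13 did not pass over 12 arrays (limma adjusted p = 0.0821), and did in a fit of the 4 antibody arrays alone (limma adjusted p = 0.00252), after a second quantile normalization (limma adjusted p = 0.00969), in the mean of the probe sets (limma adjusted p = 0.0275) and in probe set 2 (limma adjusted p = 0.0426). The genes most like Pgk1 were the mitochondrial genes Cycs (r = 0.969), Idh3a (0.964) and Acadl (0.952).

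The lactate dehydrogenase subunits differed in their response to the antibody. Ldhb was at 11.69 and 11.69 on anti-TGF-beta arrays, against 10.29 and 10.30 on IgG arrays, while Ldha was at 12.35 and 12.38 with the antibody, against 12.38 and 12.44 with IgG. Ldhb rose by 1.39 ± 0.10, or 2.62-fold (limma adjusted p = 1.75e-11), and its other probe sets gave 1.59 to 1.89. Ldha differed by -0.04 ± 0.11 (95% interval -0.27 to 0.18, limma adjusted p = 0.837). Ldhb minus Ldha was therefore higher by 1.43 log2 with the antibody, against changes of 0.04 and 0.33 for genotype on the HFD and the RD. All 7 slow muscle markers, such as Myh7 and Myl2, rose with the antibody (median 4.58), and all 7 rose for genotype on the HFD (median 2.93), where Ldhb moved far less. Their mean level was 9.91 and 9.97 with the antibody, against 5.24 and 5.26 with IgG, where all 7 were below the array median. The part of these markers in the Ldhb difference was not tested.

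For genotype, the subunits differed by less. On the HFD Ldhb was at 11.88 and 12.01 on Smad3-/- arrays, against 11.57 and 11.63 on WT arrays, a rise of 0.35 ± 0.10 (limma adjusted p = 0.0238). That call ended without Smad3-/- HFD replicate b (0.28, limma adjusted p = 0.238), without WT HFD replicate a or b (limma adjusted p = 0.108 and 0.0501), in probe set 3 (0.32, limma adjusted p = 0.111), in a fit of the 8 diet and genotype arrays (limma adjusted p = 0.0699) and with eBayes without a trend (limma adjusted p = 0.0801). Ldha was at 11.98 and 11.99 on Smad3-/- HFD arrays, against 11.57 and 11.80 on WT HFD arrays (0.30 ± 0.11, limma adjusted p = 0.0805). This passed without WT HFD replicate b (0.42, limma adjusted p = 0.0304), with dim genes left out (limma adjusted p = 0.0457), after a second quantile normalization (limma adjusted p = 0.0219) and without the RD arrays in the fit (limma adjusted p = 0.0359). On the RD Ldha was at 11.74 and 11.41 on Smad3-/- arrays, against 12.02 and 12.08 on WT arrays. It fell by 0.47 on the log2 scale (SE 0.11, limma adjusted p = 0.00147), which shrank to -0.31 without Smad3-/- RD replicate b and to -0.19 after a second quantile normalization, both past the threshold. Ldhb overlapped on the RD, at 11.76 and 11.51 on Smad3-/- arrays, against 11.80 and 11.75 on WT arrays (-0.14 ± 0.10, limma adjusted p = 0.36).

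Markers of other tissues also shifted in the RD comparison. All 8 epididymis and sperm genes rose in Smad3-/- RD arrays (median 6.48) and all 5 smooth muscle genes fell (median -3.28). Of 8 white adipocyte genes 6 fell and 0 rose (median -1.56), among them Lep (log2 difference -3.85), and their mean level was 10.56 and 10.42 on Smad3-/- RD arrays, against 12.18 and 12.23 on WT RD arrays. Of 5 epithelial genes 4 rose and 0 fell (median 0.93). Of 10 macrophage genes 6 fell and 1 rose, and of 5 genes that respond to tissue handling, such as Fos and Egr1, 4 fell. The signal of Gapdh at its 3′ end exceeded that at its 5′ end, a gap that widens as RNA degrades, by 0.28 and 0.41 log2 on Smad3-/- RD arrays, against 0.12 and 0.14 on WT RD arrays. Over the 12 centred arrays the epididymis and sperm list had r = -0.826 with Ldha and 0.631 with Pfkl, and the epithelial list had r = -0.85 with Ldha. The part of these lists in the differences was not tested. For genotype on the HFD, 5 of the 8 epididymis and sperm genes fell and 0 rose. For genotype on the HFD, the fit without the RD arrays, added after seeing the data, called 9 of 9 enzymes, and for the antibody it called 4. Of 18194 genes, that fit called 878 higher and 1152 lower for genotype on the HFD, and 2145 and 2260 for the antibody.

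The HFD against the RD separated the genotypes. In Smad3-/- mice Eno3 rose by 2.25 ± 0.12 (4.75-fold, limma adjusted p = 2.05e-14), Pgam2 by 2.03 ± 0.15 (4.08-fold, limma adjusted p = 1.44e-11) and Pfkm by 1.39 ± 0.11 (2.62-fold, limma adjusted p = 5.08e-11). All 20 skeletal muscle markers rose in the same comparison (median 3.62), with a list mean of 9.92 and 10.02 on Smad3-/- HFD arrays, against 6.66 and 6.66 on Smad3-/- RD arrays, and 7 of 8 epididymis and sperm genes fell (median -4.64). Their part was not tested. Smaller rises of Ldha (0.41 ± 0.11), Aldoa (0.40 ± 0.11) and Ldhb (0.31 ± 0.10) passed too (limma adjusted p = 0.00745, 0.00691 and 0.0311). All 3 of these calls ended without Smad3-/- HFD replicate b (limma adjusted p = 0.0631, 0.0691 and 0.288), and those of Ldha and Ldhb without Smad3-/- RD replicate b as well (0.25 and 0.19, limma adjusted p = 0.15 and 0.303). After a second quantile normalization Ldha was at 0.19 (limma adjusted p = 0.0446) and Ldhb at 0.10 (limma adjusted p = 0.359). The Ldhb call also ended with eBayes without a trend (limma adjusted p = 0.0877) and in a fit of the 8 arrays (limma adjusted p = 0.0794). Probe set 5 of Aldoa gave 0.15 (limma adjusted p = 0.455).

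In WT mice the HFD left Eno3 and Pfkm without a called change, and of 20 skeletal muscle markers 0 rose and 5 fell. Aldoa fell by 0.37 on the log2 scale (mean 13.01 on WT HFD arrays, against 13.39 on WT RD arrays, limma adjusted p = 0.0193). Ldha fell by 0.36 on the log2 scale (mean 11.68 on WT HFD arrays, against 12.05 on WT RD arrays, limma adjusted p = 0.0276). Both calls ended with eBayes without a trend (limma adjusted p = 0.06 and 0.0878), in a fit of the 8 diet and genotype arrays (limma adjusted p = 0.0677 and 0.0707), without WT RD replicate b (limma adjusted p = 0.287 and 0.203) and without WT HFD replicate a (limma adjusted p = 0.251 and 0.3), and that of Ldha also without WT RD replicate a (limma adjusted p = 0.104) and in the mean of probe sets (limma adjusted p = 0.0621). The other probe sets of Aldoa gave -0.57 to -0.38. All 5 smooth muscle genes fell in this comparison (median -3.66), and 5 of 8 epididymis and sperm genes rose (median 2.94). Their part was not tested.

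The interaction asks whether the genotype difference depends on the diet. The signed difference on the HFD minus that on the RD was called positive for 7 of the 9 enzymes and called negative for 0, beside 12.0% and 6.77% of all genes (18.8% either way). Eno3 led with 2.55 ± 0.17 (limma adjusted p = 2.09e-12), then Pfkm with 1.48 ± 0.15 (limma adjusted p = 1.22e-08) and Pgam2 with 1.11 ± 0.21 (limma adjusted p = 0.000163). Aldoa and Ldha each differed by 0.78 ± 0.15 (limma adjusted p = 0.000264 and 0.000368). For Ldha the genotype difference had opposite signs, 0.30 on the HFD, which did not pass, and -0.47 on the RD. The interaction did not pass for Pgk1 (0.43 ± 0.18, limma adjusted p = 0.103) and for Pfkl (-0.26 ± 0.14, limma adjusted p = 0.232), although a second quantile normalization gave -0.51 for Pfkl (limma adjusted p = 0.00219), and Pgk1 passed in 4 alternatives, among them without WT HFD replicate b (limma adjusted p = 0.00861). All 20 skeletal muscle markers had a called positive interaction. A difference between the antibody and the genotype effects could not be tested, because the experiments share no group.

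Among 13 other measured glycolysis enzymes, 3 rose and 0 fell for genotype on the HFD (median -0.05), where 4.74% of all genes were called higher and 6.05% lower. With the antibody 2 rose and 4 fell (median -0.13), beside 11.7% of all genes higher and 12.6% lower. For genotype on the RD 1 rose and 1 fell (median -0.04), beside 8.40% and 15.6% of all genes. On the HFD the risers were Pkm, the pyruvate kinase of most tissues (0.64 ± 0.12), Gapdh (0.52 ± 0.10) and Hk2, the hexokinase of muscle and fat (0.49 ± 0.11). With the antibody Hk2 averaged 10.80, against 9.89 with IgG (0.91 ± 0.11, limma adjusted p = 2e-07). Hk3, a hexokinase of myeloid cells, averaged 6.79 with the antibody, against 8.42 with IgG (-1.62 ± 0.12, limma adjusted p = 4.4e-11), beside 9 of 10 macrophage markers that fell. Tpi1, triose phosphate isomerase, fell with the antibody too (-0.67 ± 0.11, limma adjusted p = 2.59e-05) and fell for genotype on the RD (-0.44 ± 0.11, limma adjusted p = 0.00306). Aldoc, the brain aldolase, rose on the RD (1.04 ± 0.16, limma adjusted p = 1.31e-05).

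**Figure D4:**
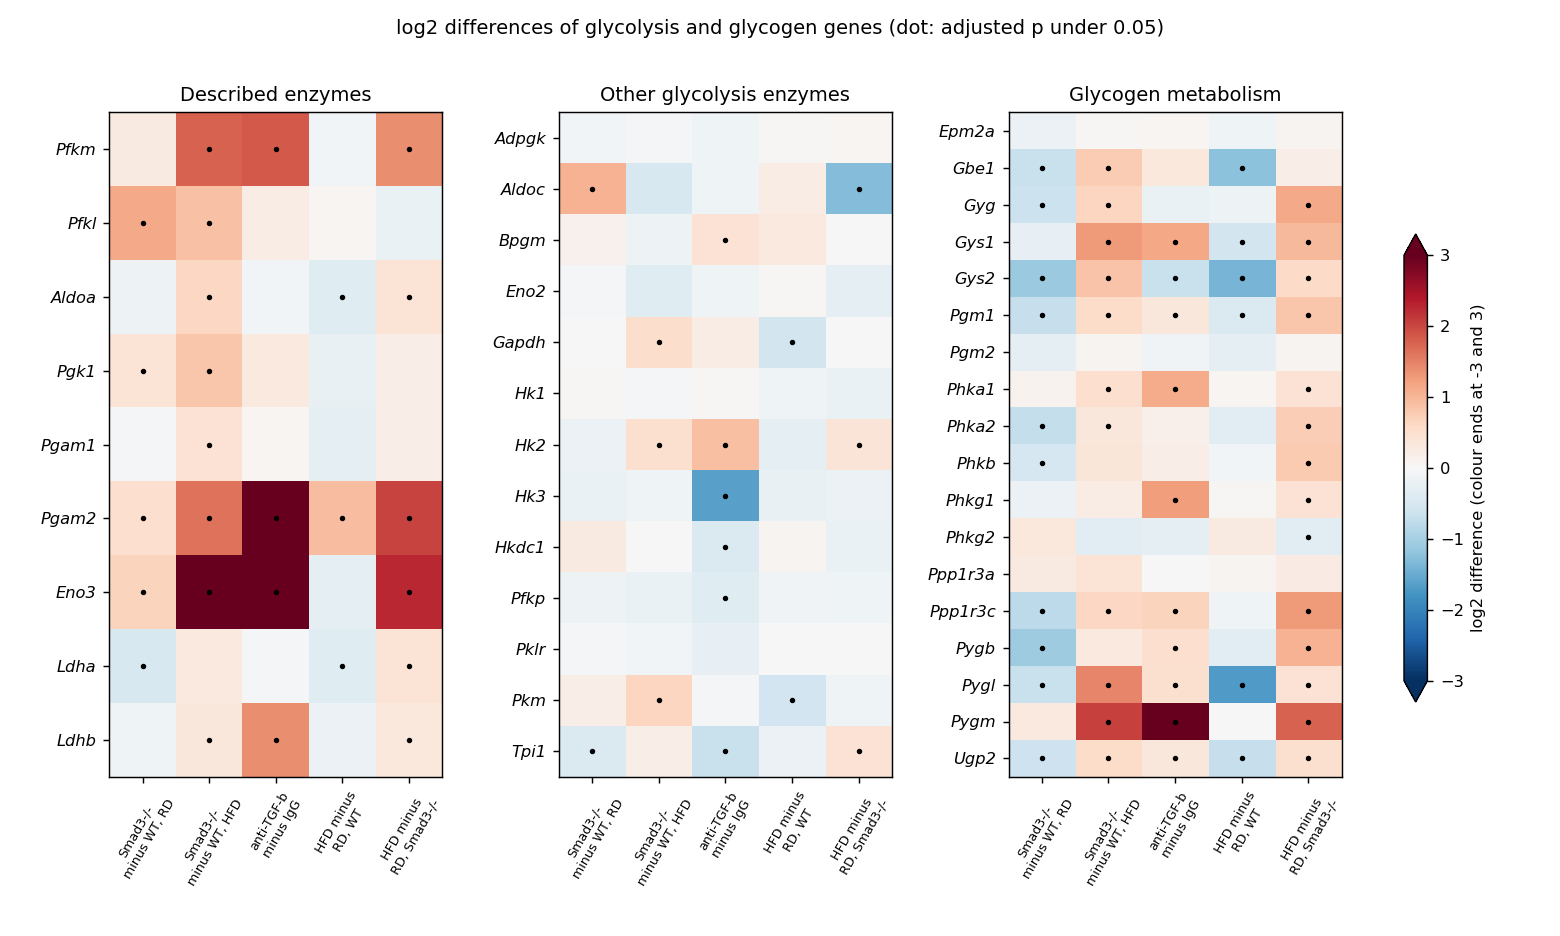
log2 differences of the 9 enzymes, 13 other glycolysis enzymes and 18 glycogen genes (rows) in 5 comparisons (columns), coloured on a scale that ends at -3 and 3, with a dot where the adjusted p is under 0.05. Pygm in the glycogen panel rose, as did Pfkm, Pgam2 and Eno3, in the HFD genotype and antibody columns, at 2.05 and 3.72. The strength of the colour differs between these genes.

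Glycogen genes, which feed glucose into the pathway, went in opposite directions for genotype on the 2 diets. Of 18 measured, 0 rose and 10 fell in Smad3-/- arrays on the RD (median -0.56), and 11 rose and 0 fell on the HFD (median 0.52). With the antibody 9 rose and 1 fell (median 0.33). Beside these stood 8.40% of all genes higher and 15.6% lower on the RD, 4.74% and 6.05% on the HFD, and 11.7% and 12.6% with the antibody. Pygm, the muscle glycogen phosphorylase, was at 9.57 and 9.52 with the antibody, against 5.79 and 5.87 with IgG, which lay below the array median (3.72 ± 0.14, limma adjusted p = 1.02e-17). On the HFD it was at 8.46 and 8.26 on Smad3-/- arrays, against 6.18 and 6.43 on WT arrays (2.05 ± 0.14, limma adjusted p = 1.37e-11). Both Pygm differences were larger in size than those of Pfkm, a contrast that was not tested. Gys1, the glycogen synthase of muscle, rose by 1.28 for genotype on the HFD (limma adjusted p = 1.3e-09) and also rose with the antibody (limma adjusted p = 5.29e-09). Forms of other tissues moved on the HFD too, Pygl of liver by 1.46 and Gys2 by 0.86, and on the RD Gys2 and Pygb were lower by -1.12 and -1.07. The shifts of skeletal muscle markers given above accompany the HFD and antibody values, and their part was not tested.

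Among 11 regulators and lactate carriers, 1 rose and 4 fell for genotype on the RD, 2 rose and 1 fell on the HFD, and 3 rose and 2 fell with the antibody. Of all genes, 8.40% were higher and 15.6% lower on the RD, 4.74% and 6.05% on the HFD, and 11.7% and 12.6% with the antibody. Pfkfb3, which makes the activator of phosphofructokinase, averaged 8.27 on Smad3-/- RD arrays, against 9.35 on WT RD arrays (-1.08 ± 0.12, limma adjusted p = 6.78e-08). Slc16a1, a lactate carrier, fell there as well (-1.16 ± 0.11, limma adjusted p = 3.24e-09). Hif1a, the hypoxia factor that drives many glycolysis genes, fell for genotype on both diets and with the antibody (-0.53 ± 0.11, limma adjusted p = 0.000555). The genotype values were -0.76 ± 0.11 on the RD and -0.58 ± 0.11 on the HFD (limma adjusted p = 2.99e-06 and 0.000371). Mlxipl, the carbohydrate-responsive transcription factor ChREBP, rose on the HFD (0.67 ± 0.11) and with the antibody (1.07 ± 0.11, limma adjusted p = 8.52e-05 and 2.56e-08).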

How the data were processed

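Each of 12 samples of mouse total RNA was hybridised to 1 array. The authors deposited RMA values in log2 units, with Partek named in the submitters' processing notes and its version not given in the sources used here. Titles set the groups, 2 arrays in each.

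Of 45101 probe sets, 34958 named 1 gene in the platform annotation, 932 several and 9211 none. Each of 18194 genes was read from its brightest probe set. The test was limma 3.58.1 under R 4.3.3 (lmFit with 6 group means over 12 arrays, eBayes with an intensity trend, 6 residual and 20.4 prior degrees of freedom), two-sided. The p-values of all genes were adjusted by Benjamini-Hochberg and called at 0.05. No detection calls were used. A limma adjusted p in the text comes from this fit or a named alternative, and the value of another probe set from a fit over all probe sets.

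The members, the gene lists and the naming rule were chosen with earlier results of these data known. The rule takes the 9 members, up to 4 genes a pathway list and up to 3 a marker list with the smallest p, and the 3 genes most like each member. Of these the text prints part. Genes of lists with no probe set naming only them were not analysed here. Deviations of arrays with the same letter correlated at -0.161 to 0.169, so no large effect was shared by letter. Whether the samples are paired cannot be told from this. Data simulated over 18194 genes gauged what the fit can call. Of genes changed by 1 log2, it called 89.6% for genotype on the RD and 92.5% on the HFD. The antibody comparison reached 98.5% and the interaction 62.7%. With a size of 0.5 log2, only 40.3% were called for genotype on the RD, 35.8% on the HFD and 43.3% for the antibody. The shares were 23.9% for diet in WT mice, 22.4% in Smad3-/- mice and 4.48% for the interaction. An uncalled difference of about 0.5 log2 or less is therefore no evidence of no change. Each simulated comparison left 17994 genes unchanged, so these shares need not hold for the real data. Alternatives were eBayes without a trend, dim genes left out (under the 40th percentile), the mean or each of a gene's probe sets, median-centred arrays, a second quantile normalization of all 12, only an experiment's arrays, the letter as a replicate block, leaving out each array, with a lone array taken to vary like the other groups, and, added after seeing the data, no RD arrays.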

Additional observations from a re-analysis of the deposited data

Results flagged for a closer look

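For 7 of the 9 measured enzymes the genotype difference depended on the diet by a test of the interaction (limma, adjusted over all genes). The genotype difference on the HFD minus that on the RD was 2.55 for Eno3, 1.48 for Pfkm and 1.11 for Pgam2. It was 0.78 for Aldoa and 0.78 for Ldha. For Ldhb it was 0.49 (limma adjusted p = 0.0149) and for Pgam1 0.48 (limma adjusted p = 0.031). The calls of Ldhb and Pgam1 ended with eBayes without a trend (limma adjusted p = 0.052 and 0.0835) and after a second quantile normalization, which put Ldhb at 0.17 and Pgam1 at 0.15. They also ended when WT RD replicate a or Smad3-/- HFD replicate b was left out (0.47 and 0.42 for Ldhb, 0.51 and 0.38 for Pgam1). The call of Ldhb ended without Smad3-/- RD replicate b (0.36), and that of Pgam1 with genes at the mean of their probe sets (limma adjusted p = 0.0531) and without WT RD replicate b, WT HFD replicate a or Smad3-/- RD replicate a (0.44, 0.41 and 0.42). The second quantile normalization also put Ldha at 0.42 (limma adjusted p = 0.00162). Skeletal muscle markers had the same sign of interaction in 20 of 20, epididymis and sperm genes the opposite sign in 8 of 8, and smooth muscle genes the same sign in 5 of 5. Their part in these values was not tested.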

How the results depend on the processing

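The 9 enzymes in 6 comparisons give 33 differences past the threshold and 21 not past it, each recomputed under 12 to 20 alternatives. Over all of them, 420 values of the called differences kept their direction and call, 51 kept the direction and lost the call, and 1 reversed. Of the others 261 stayed uncalled in the same direction, 23 passed and 12 reversed. These counts include settings that keep the log2 difference by construction, where the direction could not change. Among them are the first probe set of each enzyme and, for enzymes with 1 probe set, the mean of the probe sets. Agreement in direction there is no support. Eno3 and Pgam2 kept their calls for genotype on the HFD and the antibody in every alternative, at 3.18 to 3.60 and 2.74 to 3.42 for Eno3 and at 1.42 to 1.88 and 2.28 to 3.16 for Pgam2, and Pfkm kept its calls there at 1.66 to 1.86 and 1.73 to 1.88. The replicate block changed no call of an enzyme and called 4358 genes for genotype on the RD, 1947 on the HFD and 4412 for the antibody.

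Leaving out 1 array at a time, 3 to 5 enzymes were called for genotype on the RD (3 without WT RD replicate a), against 5 with all arrays, 3 to 6 for diet in Smad3-/- mice (3 without Smad3-/- HFD replicate b), against 6, and 1 to 4 for diet in WT mice, against 3. For diet in WT mice only 1 enzyme, Pgam2, was called with eBayes without a trend (1), with the experiment's arrays only (1), without WT RD replicate b and without WT HFD replicate a. Calls over all genes for diet in WT mice were 1296 to 1679, against 1966, and for diet in Smad3-/- mice 2035 to 2710, against 3150, lowest without WT RD replicate a and Smad3-/- HFD replicate b. A second quantile normalization split the calls over all genes for genotype on the RD into 2438 higher and 2572 lower, against 1528 and 2833.

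These differences changed sign. After a second quantile normalization Pgam1 was at 0.29 and Ldhb at 0.10 for genotype on the RD, and Pgk1 at -0.02 and Pgam1 at -0.01 for diet in Smad3-/- mice. In other probe sets Pfkl was at -0.04 for genotype on the HFD in probe set 3 and -0.20 for diet in WT mice in probe set 2, and Aldoa at 0.02 and 0.01 for the antibody in probe sets 2 and 4. Leaving out 1 array at a time, Pgam1 ran between -0.09 and 0.02 for genotype on the RD (highest without Smad3-/- RD replicate a) and between -0.07 and 0.21 for the antibody (below 0 without replicate b of anti-TGF-beta, and at -0.02 without replicate b of IgG). For diet in WT mice Pfkm ran between -0.18 and 0.01 and Pfkl between -0.02 and 0.13, both reversed without WT HFD replicate b. The cause of these changes was not tested, beyond fewer arrays or other probes by construction.

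With 2 arrays a group, several differences under 0.5 log2 moved across the threshold. Genes near the array median, such as Pgam2 with IgG, have less certain folds.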

Other observations

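The glycerol branch and the gluconeogenesis genes, which run against or off the pathway, were led by Gpd2, the mitochondrial glycerol phosphate dehydrogenase. It stood at 10.32 and 10.66 on Smad3-/- HFD arrays, against 7.98 and 7.97 on WT HFD arrays (2.52 ± 0.12, limma adjusted p = 2.12e-15), at 10.84 and 10.48 on Smad3-/- RD arrays, against 9.54 and 9.48 on WT RD arrays, and at 10.97 and 10.94 with the antibody, against 8.57 and 8.55 with IgG. It was higher in all 3 comparisons with no overlap, as were 22.3%, 32.3% and 29.7% of all genes in each comparison by itself. Gpd1, its cytosolic partner, rose by 1.24 for genotype on the HFD. Fbp2, the muscle fructose bisphosphatase, rose by 1.31 for genotype on the RD and by 0.80 with the antibody, and did not pass for genotype on the HFD (0.31 ± 0.15, limma adjusted p = 0.236), where the muscle isoforms of glycolysis rose.

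Of 15 other genes known to respond to hypoxia factors, 3 rose and 4 fell for genotype on the RD, 3 rose and 0 fell on the HFD and 6 rose and 0 fell with the antibody. The shares of all genes were 8.40% higher and 15.6% lower on the RD, 4.74% and 6.05% on the HFD, and 11.7% and 12.6% with the antibody. Bnip3 averaged 10.72 on Smad3-/- RD arrays, against 12.27 on WT RD arrays. Of 5 sperm forms of glycolysis enzymes, Ldhc, the sperm lactate dehydrogenase, was at 6.88 and 6.89 on Smad3-/- RD arrays, against 6.14 and 6.12 on WT RD arrays, and at 6.47 and 6.40 on Smad3-/- HFD arrays, against 7.96 and 8.26 on WT HFD arrays. The sperm protamine Prm1 was at 7.00 and 7.27 on Smad3-/- HFD arrays, against 9.65 and 9.66 on WT HFD arrays.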
